A study of Mus musculus with 12 samples.

Results

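Lactate dehydrogenases interconvert pyruvate and lactate, and monocarboxylate transporters carry lactate together with a proton across the cell membrane. The 6 genes described here are *Ldha*, *Ldhb*, *Ldhd*, *Slc16a1*, *Slc16a3* and *Bsg*, chosen by name from 55367 gene symbols listed for each sample, and all 6 were found. They were measured by RNA sequencing of single muscle fibers from the extensor digitorum longus (EDL), a fast muscle of the hindlimb, of male C57BL/6J mice. The groups were fibers of 3–4-month-old young mice, and Fluo-4 normal and Fluo-4 abnormal fibers of 26–28-month-old mice, with 4 samples in each of the 3 groups. Fluo-4 is a fluorescent calcium dye, and the abnormal fibers were those picked under a fluorescence stereomicroscope for their aberrant staining, which the study ties to tubular aggregate-like stacks of sarcoplasmic reticulum. The sources name no genetic change and no treatment of these mice, and how many fibers or mice went into a sample is not given in the sources used here. Where a library holds more than 1 kind of fiber, fewer fibers of a kind and less RNA per fiber cannot be told apart.

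In vertebrate muscle, LDHA is the subunit that predominates in glycolytic fibers, where it turns pyruvate into lactate and regenerates NAD+, whereas LDHB is typical of heart and oxidative fibers, where lactate is mostly taken up and burned. LDHD is a different enzyme, a mitochondrial dehydrogenase that acts on D-lactate and related D-2-hydroxyacids. *Slc16a3* encodes MCT4, the transporter that exports lactate from glycolytic fibers. *Slc16a1* encodes MCT1, which is associated with lactate uptake in oxidative fibers. *Bsg* encodes basigin, the membrane chaperone that MCT1 and MCT4 need to reach the cell surface.

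Values are TPM (the share of all transcripts, scaled to a sum of 1000000 per sample), which correct for library size and transcript length, so that levels of different genes can be set side by side. In mean TPM over the 12 samples, *Ldha* (4540 TPM) ranked 28 among 21430 protein-coding and mitochondrially-encoded genes, *Bsg* (1316 TPM) ranked 75, and *Slc16a3* (240 TPM) ranked 379. *Ldhb* (24.0 TPM), *Ldhd* (10.6 TPM) and *Slc16a1* (10.5 TPM) were far lower, and the levels of the last 2 lay within the spread of each other. The genes of the glycolytic side thus made up most of the transcripts of both families: *Ldhb* was 0.110% to 1.34% of the summed *Ldha* and *Ldhb* TPM, and *Slc16a1* was 1.89% to 6.88% of the summed *Slc16a1* and *Slc16a3* TPM. The samples carried the markers of their labelled cell type: the sum of 6 muscle fiber genes (*Acta1*, *Ckm*, *Mylpf*, *Tnnt3*, *Atp2a1*, *Ryr1*) was 120695 to 162383 TPM. *Myh4*, which encodes type IIb myosin, made up 93.7% to 99.7% of the TPM of the 4 adult myosin heavy chain genes, and *Myh7* of slow fibers was at 0.205 TPM or less. The sum of 7 slow fiber genes (*Myh7*, *Myl2*, *Myl3*, *Tnnc1*, *Tnni1*, *Tnnt1*, *Atp2a2*) was 1.61 to 8.34 TPM. The levels below are thus those of fast, mostly type IIb, fibers. Pairs of the 12 samples correlated at 0.979 to 0.994 over all tested genes.

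In GRCm39 with the GENCODE annotation, *Ldha* lies at chr7:46490899-46505061 on the plus strand, *Ldhb* at chr6:142435672-142454586 on the minus strand and *Ldhd* at chr8:112350417-112357006 on the minus strand. *Slc16a1* lies at chr3:104545811-104565780, *Slc16a3* at chr11:120838846-120851694 and *Bsg* at chr10:79540143-79547821, all on the plus strand. Exons of *Slc16a3* share 4529 bp with *Csnk1d* and 452 bp with *Ccdc57*, and exons of *Ldhd* share 2246 bp with *Znrf1*, each on the opposite strand, and exons of *Ldha* share 477 bp and 178 bp with 2 long non-coding RNAs. The libraries keep no record of strand, so reads from these stretches cannot be told apart. *Csnk1d* was listed at 19.2 to 33.6 TPM, *Ccdc57* at 1.60 to 4.52 TPM and *Znrf1* at 22.9 to 33.3 TPM, the last above *Ldhd* in every sample. A near-identical copy (at least 95% identity over at least 100 bp) was found elsewhere in the genome for *Ldhb* alone of the 6 genes, at the place of *Ldhb-ps*, which was listed at 0 to 0.619 TPM.

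The 250 bases before the start of the GENCODE canonical transcript were read from GRCm39 for *Ldha*, *Ldhd*, *Slc16a1*, *Slc16a3* and *Bsg*, and 3 motifs of factors known to act on genes of this kind were searched: the E-box CACGTG, bound by MYC and related factors, the hypoxia response core ACGTG or GCGTG, bound by hypoxia-inducible factors, and AAGGTCA, the half-site of estrogen-related receptors. Both strands were searched, and every E-box also holds the hypoxia core on each strand. Of 21770 such windows, 6.3% held an E-box, 41.3% a hypoxia core and 3.9% the receptor half-site. The *Ldha* window held 2 E-boxes and, outside them, 2 further hypoxia cores. The *Ldhd* window held 1 E-box and the *Slc16a1* window 1 E-box and 1 further hypoxia core. Of the *Slc16a1* window, 238 bases are exons of another gene, *Gm65697*, and the 12 bases free of exons hold no motif. Annotated exons of the gene itself cover 131 bases of the *Ldha* window, which lies inside that gene, and 115 bases of the *Slc16a3* window. The *Slc16a3* window held 1 hypoxia core and no E-box, the *Bsg* window held none of the motifs, and none of these windows held the receptor half-site. The sequences of 2 windows, free of annotated exons, are shown because these 2 dehydrogenase genes hold E-boxes, with the motifs in capitals, 5′ to 3′ on the strand of the gene. The *Ldhd* sequence is chr8:112357007-112357256, and the *Ldha* sequence is the part chr7:46495013-46495131 of its window, which holds 1 of the 2 E-boxes.
Ldhd: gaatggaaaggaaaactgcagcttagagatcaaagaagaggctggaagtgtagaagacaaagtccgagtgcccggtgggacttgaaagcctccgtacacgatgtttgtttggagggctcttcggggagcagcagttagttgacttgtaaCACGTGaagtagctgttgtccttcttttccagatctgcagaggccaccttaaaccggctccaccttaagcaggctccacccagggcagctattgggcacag
Ldha: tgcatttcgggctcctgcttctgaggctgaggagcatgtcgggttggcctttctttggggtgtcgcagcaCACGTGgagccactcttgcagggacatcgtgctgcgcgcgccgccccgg
These letters are a description of the windows, and binding was not measured here.

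The comparisons ask which genes of lactate handling differ between abnormal and normal fibers of aged mice, and between either of them and young fibers. The tests were made with limma on log2(TPM + 1) over 14429 genes, and a gene was called at a Benjamini-Hochberg adjusted p-value under 0.05 over all of them. A change is given as the difference of log2(TPM + 1) with its standard error (SE), which understates the change of genes at low TPM. Between Fluo-4 abnormal and Fluo-4 normal fibers, 2 of the 6 genes were called, *Bsg* higher and *Slc16a1* lower, where 9.36% of all tested genes were called (7.37% higher and 1.99% lower). Between Fluo-4 abnormal and young fibers, *Ldhd* alone of the 6 genes was called, lower, where 8.5% of all tested genes were called (6.09% higher and 2.4% lower). Between Fluo-4 normal and young fibers, 0 of the 6 genes were called, where limma called 1.15% of all tested genes (0.561% higher and 0.589% lower). In this comparison 2 of the 6, *Ldha* and *Slc16a1*, had an unadjusted p-value under 0.05, as did 1866 of the 14429 tested genes. Between abnormal and normal fibers *Ldhb*, *Ldhd*, *Slc16a1* and *Bsg* had one, as did 3694 of all tested genes. Between abnormal and young fibers *Ldha*, *Ldhb*, *Ldhd* and *Bsg* had one, as did 3324 of all tested genes. The values of the groups did not overlap for 2 of the 6 genes (*Slc16a1* and *Bsg*) between Fluo-4 abnormal and normal fibers, for 4 (*Ldha*, *Ldhb*, *Ldhd* and *Bsg*) between Fluo-4 abnormal and young fibers, and for 1 (*Ldha*) between Fluo-4 normal and young fibers. Over all tested genes, this share was 14%, 16.2% and 7.98%, respectively.

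**Figure D1:**
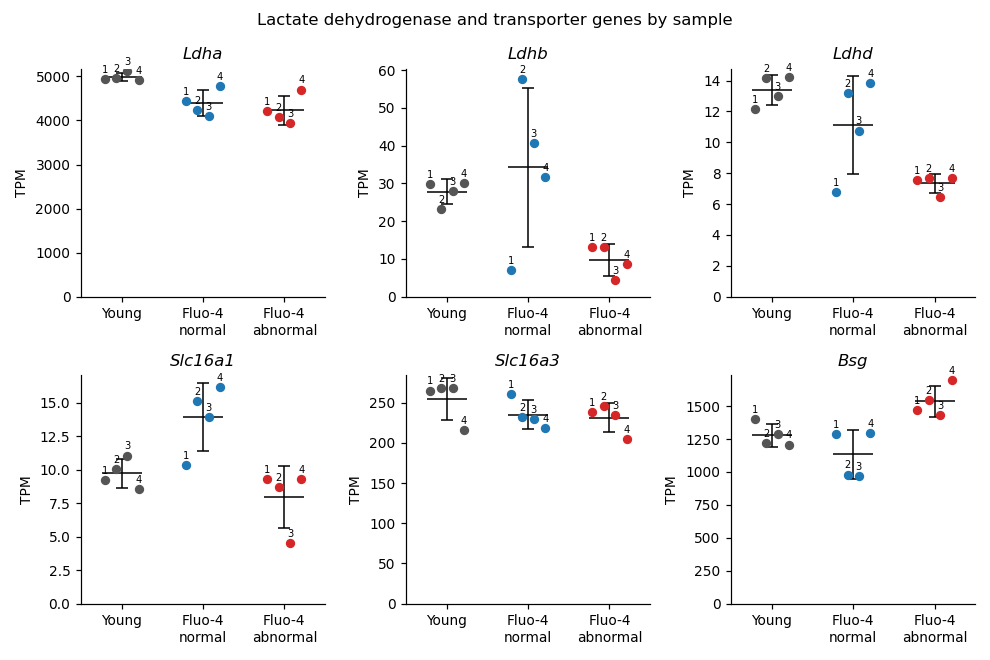
TPM of the 6 genes in each sample (vertical axes from 0), by group, with the number of each sample beside its point and the mean and SD of each group of 4 in black. *Ldhb* of the first Fluo-4 normal sample lies at 7.12 TPM, far from the other normal samples, and *Slc16a1* is higher in each normal than in each abnormal sample.

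*Ldha* was the most abundant of the 6 genes in every sample. It was at 4948, 4968, 5116 and 4923 TPM in the young samples, at 4447, 4240, 4107 and 4789 TPM in the Fluo-4 normal samples, and at 4216, 4084, 3942 and 4700 TPM in the Fluo-4 abnormal samples. Both aged groups lay below every young sample and overlapped each other. The group means were 4989 ± 86.8, 4396 ± 297 and 4235 ± 329 TPM (SD, n = 4 each). The change was -0.24 (SE 0.08) between abnormal and young fibers (limma, adjusted p = 0.082) and -0.18 (SE 0.08) between normal and young fibers (adjusted p = 0.34), and neither was called, although abnormal fibers were called lower than young fibers (adjusted p = 0.029) when only genes of at least 5 TPM were tested. Between abnormal and normal fibers the change was -0.05 (SE 0.08, adjusted p = 0.70), with the abnormal sample lower in 4 of 4 pairs of the same number.

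*Ldhb* varied most of the 6 genes within each group, with coefficients of variation of 11.8% in young, 61.6% in Fluo-4 normal and 43.1% in Fluo-4 abnormal fibers. It was at 29.9, 23.1, 28.01 and 30.2 TPM in the young samples, at 7.12, 57.7, 40.7 and 31.6 TPM in the Fluo-4 normal samples, and at 13.2, 13.1, 4.35 and 8.58 TPM in the Fluo-4 abnormal samples. All abnormal samples lay below all young samples and below 3 of the 4 normal samples, and the first normal sample lay within the abnormal range. The group means were 27.8 ± 3.28 TPM in young, 34.3 ± 21.1 TPM in normal and 9.81 ± 4.23 TPM in abnormal fibers (SD, n = 4 each). The change was -1.51 (SE 0.48) between abnormal and young fibers (limma, adjusted p = 0.072), -1.50 (SE 0.48) between abnormal and normal fibers (adjusted p = 0.071) and -0.01 (SE 0.48) between normal and young fibers (adjusted p = 1), so that no comparison was called. With TMM-type scaling, which sets libraries on the trimmed mean of their gene-wise ratios, abnormal fibers were called lower than normal (-1.70, adjusted p = 0.041) and young fibers (-1.66, adjusted p = 0.038), and with a filter of 5 TPM likewise (adjusted p = 0.029 and 0.033). Without the first normal sample, the other 3 normal samples lay above every young sample, and the change between normal and young fibers was 0.59 (adjusted p = 0.41). The change between abnormal and normal fibers was -2.10 (adjusted p = 0.0024) and that between abnormal and young fibers -1.51 (adjusted p = 0.0052) without that sample, both called. Without both aged samples numbered 1, a setting added after the data were seen, they were -2.26 (adjusted p = 0.0019) and -1.67 (adjusted p = 0.0035). As in the main fit, *Ldhb* was not called in 18 of 22 alternatives between abnormal and normal fibers. Between abnormal and young fibers it was not called in 16 of 21.

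The sample with low *Ldhb* among the normal fibers was also low in *Myh1*, which encodes type IIx myosin. *Myh1* was at 46.2, 542, 488 and 262 TPM in the Fluo-4 normal samples, at 258, 147, 158 and 262 TPM in the young samples, and at 64.5, 147, 48.5 and 44.3 TPM in the Fluo-4 abnormal samples. *Ldhb* and *Myh1* followed each other over the 12 samples (Pearson r = 0.94 of log2(TPM + 1)), and *Myh1* was in place 3 of 5994 genes of at least 5 TPM. Between abnormal and normal fibers, *Myh1* had a change of -1.81 (SE 0.63) that was not called (limma, adjusted p = 0.087), whereas *Myh4* rose by 0.66 (SE 0.16, adjusted p = 0.020), a call that TMM-type scaling did not give (0.44, adjusted p = 0.16). Of the other type IIb markers, *Actn3* rose by 0.77 (limma adjusted p = 0.0073). Its call was made in 22 of 22 alternatives, TMM-type scaling among them (0.55, adjusted p = 0.045). *Mylk4* was not called (0.33, limma adjusted p = 0.19). With the *Myh4* share of the myosin heavy chain TPM as a covariate, the *Ldhb* change between abnormal and normal fibers was 0.05 (adjusted p = 0.95), that between abnormal and young fibers -0.71 (adjusted p = 0.14) and that between normal and young fibers -0.76 (adjusted p = 0.26). This share falls where *Myh1* rises, and it was 98.9% to 99.7% in abnormal and 93.7% to 99.2% in normal samples. Fiber type and group thus cannot be told apart by this fit, here or for the genes below. The part of fiber type in the *Ldhb* values was not tested.

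**Figure D2:**
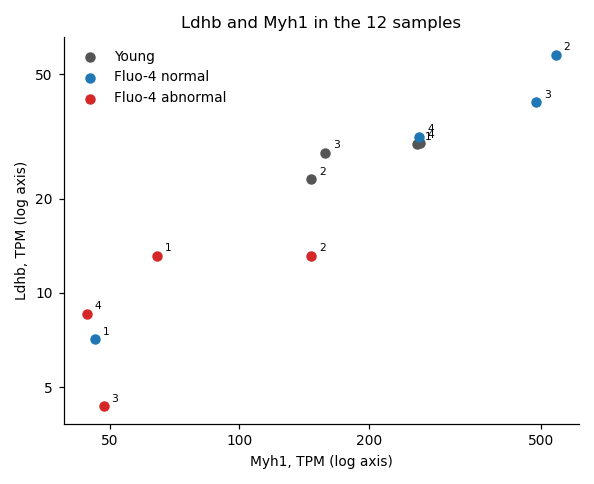
TPM of *Ldhb* (vertical, log axis) against TPM of *Myh1* (horizontal, log axis), 1 point per sample with its number. The first Fluo-4 normal sample, at 46.2 TPM of *Myh1* and 7.12 TPM of *Ldhb*, lies among the Fluo-4 abnormal samples, and the second normal sample is highest in both.

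*Ldhd* was lower in Fluo-4 abnormal fibers than in young fibers. It was at 12.2, 14.2, 13.0 and 14.2 TPM in the young samples, at 6.81, 13.2, 10.8 and 13.8 TPM in the Fluo-4 normal samples, and at 7.54, 7.70, 6.46 and 7.69 TPM in the Fluo-4 abnormal samples. The first normal sample was again the one that lay within the abnormal range. The mean was 13.4 ± 0.991 TPM in young, 11.1 ± 3.18 TPM in normal and 7.35 ± 0.595 TPM in abnormal fibers (SD, n = 4 each). *Ldhd* fell by 0.79 on the log2 scale between young and abnormal fibers (SE 0.17, limma adjusted p = 0.014), a call that held under each of the 21 alternatives computed (adjusted p 0.00091 to 0.048). Between abnormal and normal fibers the change was -0.50 (SE 0.17, adjusted p = 0.084) and not called. It was called lower in 4 of 22 alternatives, with TMM-type scaling (-0.70, adjusted p = 0.011), with a filter of 5 TPM (-0.50, adjusted p = 0.041), without the first normal sample (-0.70, adjusted p = 0.0056) and without both aged samples numbered 1 (-0.71, adjusted p = 0.0069). Over all 22 alternatives the change ran from -0.71 to -0.12 (limma adjusted p 0.0056 to 0.75). Between normal and young fibers it was -0.29 (SE 0.17, adjusted p = 0.53).

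*Slc16a1* was lower in Fluo-4 abnormal than in Fluo-4 normal fibers. It was at 9.22, 10.0, 11.1 and 8.57 TPM in the young samples, at 10.3, 15.1, 13.9 and 16.2 TPM in the Fluo-4 normal samples, and at 9.29, 8.69, 4.53 and 9.31 TPM in the Fluo-4 abnormal samples. Each normal sample lay above each abnormal sample, and the young samples lay between 8.57 and 11.1 TPM, overlapping both. The mean was 9.72 ± 1.07 TPM in young, 13.9 ± 2.54 TPM in normal and 7.96 ± 2.30 TPM in abnormal fibers (SD, n = 4 each). *Slc16a1* fell by 0.76 on the log2 scale from normal to abnormal fibers (SE 0.20, limma adjusted p = 0.028) and was lower in the abnormal sample in 4 of 4 pairs of the same number. The call was lost in the fit of the 2 aged groups alone (adjusted p = 0.070), with the *Myh4* share as a covariate (-0.56, adjusted p = 0.23) and without any 1 of the normal samples 2, 3 and 4 or without abnormal sample 2 (adjusted p 0.050 to 0.074). The change was 0.46 (SE 0.20) between normal and young fibers (adjusted p = 0.33) and -0.30 (SE 0.20) between abnormal and young fibers (adjusted p = 0.41), and neither was called.

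Endothelial cells and red blood cells also carry MCT1. The sum of 5 endothelial markers (*Pecam1*, *Cdh5*, *Kdr*, *Tek*, *Cldn5*) was 4.81 to 10.7 TPM in young, 4.83 to 22.0 TPM in Fluo-4 normal and 2.68 to 9.46 TPM in Fluo-4 abnormal samples. The sum of 5 erythroid markers (*Hba-a1*, *Hba-a2*, *Hbb-bs*, *Hbb-bt*, *Alas2*) was 33.1 to 121, 118.5 to 482 and 44.4 to 236 TPM in the same order. None of these 10 markers was called in any of the 3 comparisons, none was at 0 in a whole group, and their part in the *Slc16a1* values was not tested.

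*Slc16a3* was not called in any comparison. It was at 265, 269, 268 and 216 TPM in the young samples, at 260, 232, 230 and 219 TPM in the Fluo-4 normal samples, and at 238, 246, 235 and 205 TPM in the Fluo-4 abnormal samples. The groups overlapped throughout, with means of 254 ± 25.8, 235 ± 17.7 and 231 ± 17.9 TPM (SD, n = 4 each). The changes were -0.03 (SE 0.09) between abnormal and normal, -0.14 (SE 0.09) between abnormal and young, and -0.11 (SE 0.09) between normal and young fibers, and limma gave adjusted p-values of 0.88, 0.39 and 0.65. The abnormal sample was higher in 2 and lower in 2 of the 4 pairs of the same number.

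*Bsg* was higher in Fluo-4 abnormal fibers. It was at 1401, 1220, 1286 and 1208 TPM in the young samples, at 1290, 980.1, 966 and 1296 TPM in the Fluo-4 normal samples, and at 1469, 1546, 1430 and 1695 TPM in the Fluo-4 abnormal samples. Each abnormal sample lay above each normal and each young sample. The mean was 1279 ± 88.4 TPM in young, 1133 ± 185 TPM in normal and 1535 ± 117 TPM in abnormal fibers (SD, n = 4 each). *Bsg* rose by 0.45 on the log2 scale from normal to abnormal fibers (SE 0.11, limma adjusted p = 0.019), in 4 of 4 pairs of the same number. The median change of all tested genes in this comparison was 0.10, which TMM-type scaling moved to 0.00, and the *Bsg* change then was 0.23 and not called (adjusted p = 0.45). It was also not called with the *Myh4* share as a covariate (0.22, adjusted p = 0.31), in the fit of the aged groups alone (adjusted p = 0.054) and without normal sample 2, abnormal sample 2 or abnormal sample 4 (adjusted p 0.054 to 0.055). The change was 0.26 (SE 0.11) between abnormal and young fibers (adjusted p = 0.15) and -0.19 (SE 0.11) between normal and young fibers (adjusted p = 0.50).

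Basigin is also carried by leukocytes. The sum of 6 immune markers (*Ptprc*, *Cd68*, *Adgre1*, *Cd14*, *Lyz2*, *Cd3e*) was 1.79 to 3.01 TPM in young, 5.79 to 15.3 TPM in Fluo-4 normal and 9.27 to 16.6 TPM in Fluo-4 abnormal samples, against 966 TPM or more of *Bsg* in every sample. Of these markers, *Cd3e* was called higher in abnormal than in normal fibers (1.20, limma adjusted p = 0.0029) and than in young fibers (0.87, adjusted p = 0.014), and *Lyz2* was called higher in both aged groups than in young fibers. *Adgre1*, a macrophage marker, was at 0 in the young and the normal fibers, *Ptprc*, the pan-leukocyte marker CD45, was at 0 in the young fibers, and the part of immune cells in the *Bsg* values was not tested.

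**Figure D3:**
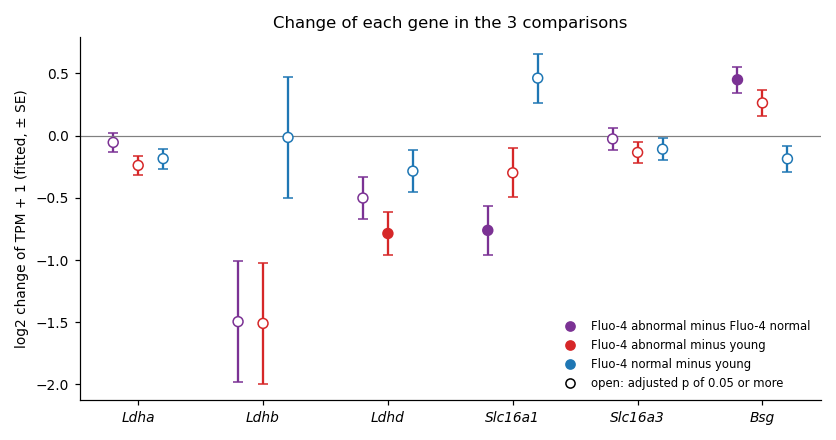
Change of log2(TPM + 1) of each gene with its SE (vertical axis) in the 3 comparisons, each with 4 samples a group, filled where the limma adjusted p-value was under 0.05. The filled points are *Slc16a1* (-0.76) and *Bsg* (0.45) between Fluo-4 abnormal and normal fibers and *Ldhd* (-0.79) between Fluo-4 abnormal and young fibers.

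The ratio of *Ldha* to *Ldhb* and that of *Slc16a3* to *Slc16a1* were then taken within each sample, where the scaling of the library cancels out. The TPM ratio of *Ldha* to *Ldhb* was 166, 215, 183 and 163 in the young samples, 625, 73.4, 101 and 152 in the Fluo-4 normal samples, and 320.0, 311, 907 and 548 in the Fluo-4 abnormal samples. Every abnormal sample had a higher ratio than every young sample and than 3 of the 4 normal samples, and the first normal sample was the exception. On the log2 scale, the mean ratio was 7.50 ± 0.18 in young, 7.35 ± 1.36 in normal and 8.88 ± 0.73 in abnormal fibers (SD, n = 4 each). The difference between abnormal and young fibers was 1.39, a ratio 2.61 times as high, with p = 0.029 in a two-sided exact permutation test, the smallest that 4 against 4 samples allow, and 0.17 after adjustment over the 6 comparisons of ratios. The difference between abnormal and normal fibers was 1.53, and the exact permutation p-value was 0.11 (adjusted p = 0.17). Without the first normal sample it was 2.18, which was not tested, since the exact permutation test of 3 against 4 samples cannot go below 0.057. Normal and young fibers differed by -0.15 (exact permutation p = 0.89, adjusted p = 0.89), a difference that was -0.80 without normal sample 1, 0.23 without normal sample 2 and 0.08 without normal sample 3.

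The TPM ratio of *Slc16a3* to *Slc16a1* was 28.8, 26.8, 24.2 and 25.2 in the young samples, 25.2, 15.4, 16.5 and 13.5 in the Fluo-4 normal samples, and 25.6, 28.3, 51.9 and 22.1 in the Fluo-4 abnormal samples. The first normal sample lay within the young range, and the other 3 normal samples lay below all young and all abnormal samples. On the log2 scale, the mean ratio was 4.71 ± 0.11 in young, 4.10 ± 0.39 in normal and 4.92 ± 0.54 in abnormal fibers (SD, n = 4 each). The difference was 0.82 between abnormal and normal fibers (exact permutation p = 0.057), -0.61 between normal and young fibers (p = 0.086, exact permutation) and 0.21 between abnormal and young fibers (p = 0.69, exact permutation). The last was -0.05 without abnormal sample 3. After adjustment the p-values were 0.17, 0.17 and 0.82, so that none of the 6 comparisons of ratios passed 0.05. A comparison alone at the smallest possible exact permutation p-value (0.029) could not pass after this adjustment, unless several others also reached it. The lack of an adjusted p-value under 0.05 thus cannot show that a ratio was unchanged. Among pairs of aged samples of the same number, the abnormal sample had the higher *Slc16a3* to *Slc16a1* ratio in 4 of 4 and the higher *Ldha* to *Ldhb* ratio in 3 of 4.

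**Figure D4:**
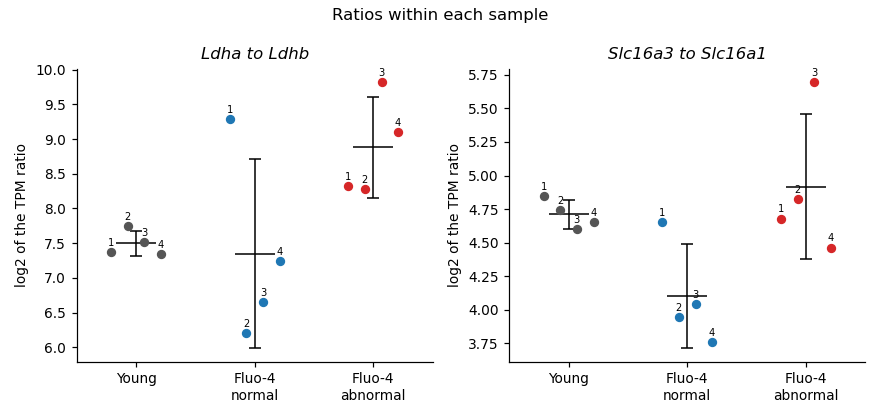
Log2 of the TPM ratios of *Ldha* to *Ldhb* (left) and *Slc16a3* to *Slc16a1* (right) in each sample, with sample numbers, and the mean and SD of each group of 4 in black. The abnormal samples lie above all young samples for *Ldha* to *Ldhb*, and the first Fluo-4 normal sample lies apart from the other normal samples in both panels.

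As a description of which other transcripts varied with the 6 genes, up to 5 of the genes with the highest Pearson correlation of log2(TPM + 1) over the 12 samples are given for each, among 5994 genes of at least 5 TPM. The samples share their group structure, so that these correlations partly restate the group means. For *Ldhb*, besides *Myh1*, they were *Sdha* (r = 0.96) of succinate dehydrogenase, *Ndufs1* (0.95) of complex I, *Hadh* (0.94) of fatty acid oxidation and *Sucla2* (0.93) of the TCA cycle. For *Ldhd* they were *Bckdk* (0.95), *Nudt4* (0.90), *Suclg1* (0.90), *Phyh* (0.90) and *Hadh* (0.89), and for *Slc16a1* the mitochondrial aspartate-glutamate carrier *Slc25a12* (0.96), the fatty acid transporter *Cd36* (0.91), *Acads* (0.91) and *Fars2* (0.91). *Ldha* was followed by the glycolytic enzyme *Tpi1* (0.90), *Isoc2b* (0.89), *Mlf1* (0.88) and *Msrb1* (0.87). *Slc16a3* was followed by *Mpv17l2* (0.89), *Cd320* (0.87), *Atg4d* (0.87), *Cnep1r1* (0.86) and *Nme6* (0.82), and *Bsg* by *Ppp1r14b* (0.90), *Cmbl* (0.90), *Wdr83os* (0.89), *Fam89b* (0.89) and the translocon subunit *Sec61b* (0.89). Among the 6 genes themselves, *Ldhb* correlated with *Ldhd* at 0.88, with *Slc16a1* at 0.75, with *Ldha* at 0.35 and with *Bsg* at -0.71, whereas *Slc16a3* correlated with the others at -0.08 to 0.20.

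The genes around these 6 were taken as 8 lists of 67 genes, of which 60 passed the limit on low values. Between Fluo-4 abnormal and normal fibers, 2 of the 60 were called higher and 15 lower, with a median change of -0.08 against 0.10 over all tested genes. Between abnormal and young fibers, 3 were called higher and 13 lower (median -0.08 against 0.07), and between normal and young fibers 3 were called higher and 0 lower (median -0.01 against -0.02). Over all tested genes, 7.37% were called higher and 1.99% lower in the first comparison. These shares were 6.09% and 2.4% in the second and 0.561% and 0.589% in the third. The counts of single lists below are to be read beside the same shares. The first 2 comparisons share the abnormal samples, and the last 2 the young samples. TMM-type scaling, which lowers the changes between abnormal and normal fibers, turned the calls over all genes from 78.7% to 37.8% higher, and left the 60 genes with 1 called higher and 18 lower.

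The other lactate dehydrogenase genes, *Ldhc* and *Ldhal6b*, which are typical of testis, were listed at 0 in all 12 samples. Of 14 other monocarboxylate transporters, 9 passed the limit on low values. The 1 that was called was *Slc16a6*, at 2.92 ± 0.644 TPM in young, 2.01 ± 0.411 TPM in normal and 0.845 ± 0.531 TPM in abnormal fibers (SD, n = 4 each). It fell by 0.74 from normal to abnormal fibers (SE 0.20, limma adjusted p = 0.037) and by 1.11 from young to abnormal fibers (SE 0.20, adjusted p = 0.0052). Of the other chaperones of the family, *Nptn*, which encodes neuroplastin, was at 37.4 ± 4.82 TPM in normal and 47.8 ± 7.39 TPM in abnormal fibers (change 0.34, adjusted p = 0.077), and *Emb*, which encodes embigin, was at 0.139 to 0.681 TPM, with neither called in any comparison.

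Of 7 genes of lower glycolysis, from aldolase to pyruvate kinase, 0 were called by limma between abnormal and normal fibers or between normal and young fibers. Between abnormal and young fibers, *Pgam2*, the muscle phosphoglycerate mutase, fell by 0.42 (SE 0.11, adjusted p = 0.034), from 6577 ± 334 to 4954 ± 645 TPM (SD, n = 4 each), whereas TMM-type scaling gave a larger change with an adjusted p above the threshold (-0.58, adjusted p = 0.052).

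Of 15 genes of mitochondrial pyruvate entry, 5 were called lower and 1 higher between abnormal and normal fibers. *Mpc2*, a subunit of the mitochondrial pyruvate carrier, fell by 0.56 (SE 0.10, limma adjusted p = 0.0044), from 694 ± 74.3 to 472 ± 58.1 TPM (SD, n = 4 each). The pyruvate dehydrogenase subunit genes *Pdhb* (-0.32, adjusted p = 0.0068), *Dlat* (-0.47, adjusted p = 0.018) and *Dld* (-0.34, adjusted p = 0.030) also fell. The 1 gene called higher, *Pcx*, the pyruvate carboxylase (0.74, adjusted p = 0.046), is named here after its value was seen. *Mpc2*, *Pdhb*, *Dlat* and *Dld* were among the 5 genes of this list called lower in abnormal than in young fibers, by 0.57, 0.33, 0.65 and 0.32 on the log2 scale. The 1 gene called higher than in young fibers, *Pdp1*, a pyruvate dehydrogenase phosphatase (0.41, adjusted p = 0.040), is also named after its value was seen, and its rise was not called with TMM-type scaling (0.25, adjusted p = 0.22).

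Of 9 genes of the shuttles that carry the electrons of cytosolic NADH into mitochondria, 6 were called lower and 1 higher between abnormal and normal fibers. *Got1*, the cytosolic aspartate aminotransferase, was at 265, 369, 354 and 334 TPM in the normal and at 172, 186, 138 and 153 TPM in the abnormal samples, and young samples lay in between, at 230, 239, 253 and 261 TPM. All normal samples lay above all young samples, and all abnormal samples below them. *Got1* fell by 1.02 from normal to abnormal fibers (SE 0.11, limma adjusted p = 0.00049) and by 0.60 from young to abnormal fibers (adjusted p = 0.0051). The oxoglutarate carrier *Slc25a11* (-0.59, adjusted p = 0.00052), the cytosolic malate dehydrogenase *Mdh1* (-0.64, adjusted p = 0.00073) and the mitochondrial aminotransferase *Got2* (-0.42, adjusted p = 0.011) also fell from normal to abnormal fibers. From young to abnormal fibers, *Slc25a11*, *Mdh1* and the mitochondrial malate dehydrogenase *Mdh2* fell by 0.54, 0.47 and 0.25 (limma adjusted p = 0.00048, 0.0037 and 0.043). The 1 gene called higher in abnormal than in normal fibers, *Gpd2* of the glycerol phosphate shuttle (0.53, adjusted p = 0.018), is named after its value was seen.

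Of 9 genes of proton and bicarbonate handling, 3 were called higher in normal than in young fibers, all of them carbonic anhydrases. *Car3* was at 326 ± 99.2 TPM in young, 1273 ± 141 TPM in normal and 1799 ± 187 TPM in abnormal fibers (SD, n = 4 each), a rise of 2.00 in normal (SE 0.17, limma adjusted p = 0.00013) and of 2.50 in abnormal fibers (SE 0.17, adjusted p = 6.3e-06) over young fibers. *Car2* was 1.35 higher in normal than in young fibers (adjusted p = 0.044) and fell by 1.56 from normal to abnormal fibers (adjusted p = 0.0065), and the membrane enzyme *Car14* was 0.86 higher in normal than in young fibers (adjusted p = 0.043). The *Car2* and *Car14* calls against young fibers were made in 7 and 4 of 21 alternatives, respectively, whereas those of *Car3* were made in all 21.

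Of 9 regulators of these genes, 2 were called lower between abnormal and normal fibers. *Perm1*, which promotes oxidative metabolism in muscle and was singled out by the study in these samples, fell by 1.15 (SE 0.15, limma adjusted p = 0.00099), from 53.8 ± 9.73 to 23.9 ± 5.34 TPM (SD, n = 4 each). *Epas1*, which encodes a hypoxia-inducible factor, fell by 0.54 (SE 0.15, adjusted p = 0.039), from 3.13 ± 0.483 to 1.83 ± 0.309 TPM (SD, n = 4 each), a call not made when aged samples of the same number were paired (adjusted p = 0.080). Between abnormal and young fibers, *Perm1* (-1.10, adjusted p = 0.00094) and *Esrra* (-0.41, adjusted p = 0.015) fell and *Myc* rose (1.07, adjusted p = 0.034). *Hif1a* was at 5.21 ± 0.404, 5.93 ± 1.49 and 7.52 ± 1.51 TPM in young, normal and abnormal fibers (SD, n = 4 each) and was not called in any comparison.

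**Figure D5:**
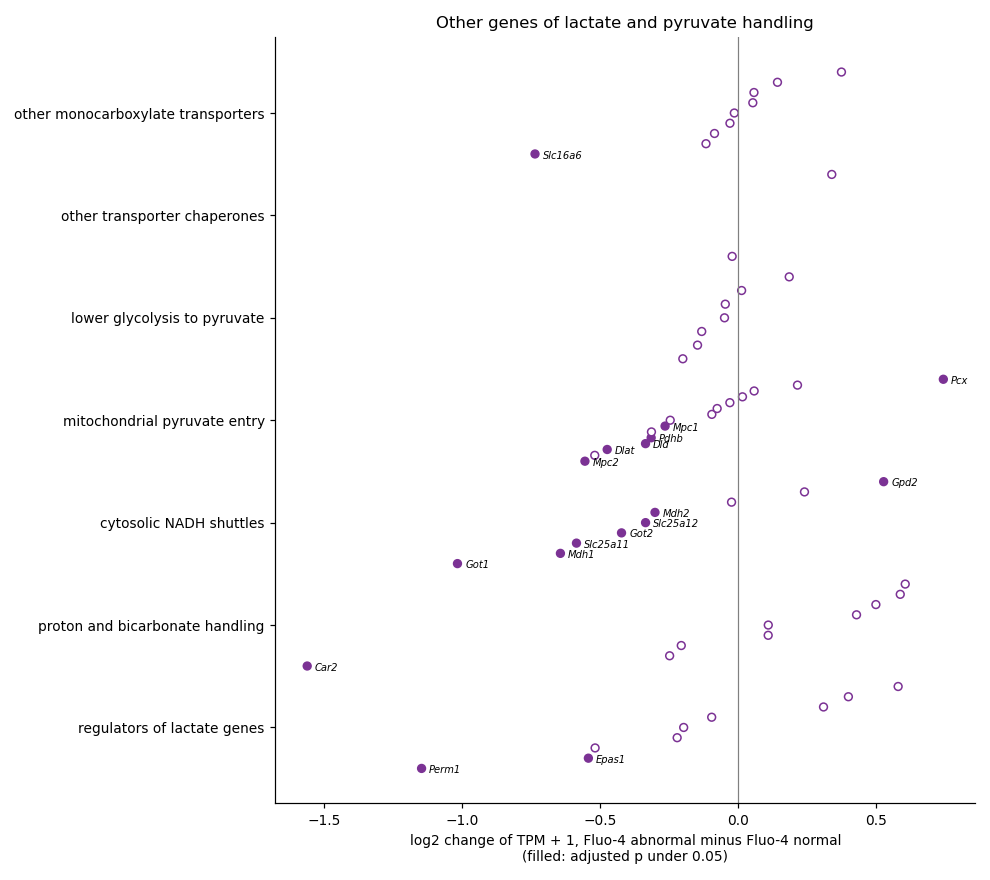
Change of log2(TPM + 1) from Fluo-4 normal to Fluo-4 abnormal fibers (horizontal axis) of the 60 tested genes of the lists (rows), 1 point per gene, filled and named where the limma adjusted p-value was under 0.05. Filled points lie to the left in the rows of pyruvate entry and of the NADH shuttles except *Pcx* and *Gpd2*, and no gene of lower glycolysis is filled.

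Among the list genes named above, the calls of *Mpc2*, *Got1*, *Slc25a11*, *Mdh1* and *Perm1* between abnormal and normal fibers were made under each of the 22 alternatives. Those of *Pdhb*, *Got2* and *Car2* were made in 21, that of *Gpd2* in 20, that of *Dlat* in 19 and that of *Dld* in 14 of them. *Pcx* was called in 8 of 22, *Slc16a6* in 11 of 21 and *Epas1* in 8 of 21. Between abnormal and young fibers, *Slc16a6* was called in 20 of 20 and *Mpc2*, *Pdhb*, *Dlat*, *Got1*, *Slc25a11*, *Mdh1*, *Car3* and *Perm1* in 21 of 21 alternatives. *Esrra* was called in 20, *Myc* in 13, *Pgam2* in 12, *Dld* and *Mdh2* in 10 each and *Pdp1* in 8 of 21.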

How the data were processed

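RNA of single EDL muscle fibers was measured in 12 samples, 4 per group. SMART-Seq v4 libraries were made from 10 ng of RNA, and DRAGEN 4.3 was used by the authors for alignment to GRCm39 and for the deposited values in TPM. Each sample's table held 55487 entries and summed to 1000000 TPM, and 114 symbols on several lines were summed. TPM keep no depth, so intervals from counts were not computed. The annotation release is not given in the sources used here. Symbols were matched to GENCODE release 39 and RefSeq names (49848 current, 117 by synonym, 2519 by RefSeq alone, 2883 unmatched).

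Protein-coding and mitochondrially-encoded genes with a mean of at least 0.02 TPM in 1 group (14429) were fitted with limma 3.58.1 (R 4.3.3) with a variance trend on log2(TPM + 1), the 3 groups in 1 model. Adjustment for all genes was by Benjamini and Hochberg (threshold 0.05). Whether samples came from separate mice is not stated, so p-values measure the spread between these samples. Ratios were compared by two-sided exact permutation over 70 arrangements of 4 against 4 samples and adjusted over 6 comparisons. Named genes are the 6 members, of each list the called genes (at most 4 per comparison by p-value) or all of a list of up to 5 genes, the adult myosin heavy chains, and the 5 closest genes by correlation. Of these closest genes 2, and 1 promoter window, are not reported here. The members, lists and rules were chosen with earlier results of these data known. Alternatives were TMM-type factors, scaling without mitochondrially-encoded genes, a pseudocount of 0.1, no filter, a filter of 5 TPM, a replicate block, only the groups compared, all annotated genes, the *Myh4* share, and leaving out each sample. Leaving out both aged samples numbered 1 was added after the data were seen. For the paired check, deviations of same-numbered aged samples correlated at 0.42, 0.36, 0.42 and 0.28 over 6349 genes, against -0.35 to 0.22 for different numbers, a hint from the data and not the design, so these were treated as pairs in the block. On simulated data for abnormal against normal fibers with 14278 genes, of which 200 were changed, limma found 93% of the genes set to change 2-fold and 99% of those set to change 4-fold, with 8.57% of calls false, and made 0 calls between unchanged groups. The false share was above the threshold of 0.05. The changed genes were drawn from those above about 5 TPM, so the found shares do not cover genes at lower TPM. The simulated samples varied independently, without the pairing seen in the data. Copies were searched with BLAST 2.17.0, and promoter windows were read from GRCm39. Tables and plots used Python 3.11.15, pandas 2.3.3, numpy 2.4.6, scipy 1.17.1 and matplotlib 3.10.9.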

Additional observations from a re-analysis of the deposited data

Results flagged for a closer look

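The 6 genes and the 2 ratios gave 24 groups of 4 samples, taken as TPM and TPM ratios without logs. Of these groups, 4 held a sample apart from the others (gap to the nearest sample, relative to the range of the group, above Dixon's limit for 4 samples). Chance flags about 1 in 20 independent groups, and these groups are not independent, since the ratios reuse the values of the genes. The first Fluo-4 normal sample had an *Ldha* to *Ldhb* ratio of 625, whereas the other 3 normal samples lay between 73.4 and 152. On the log2 scale of the ratio tests, where the limit was not applied, it was at 9.29 against 6.20 to 7.24. The third Fluo-4 abnormal sample was apart in 2 genes, with *Slc16a1* at 4.53 TPM against 8.69 to 9.31 TPM and *Ldhd* at 6.46 TPM against 7.54 to 7.70 TPM in the others. The fourth young sample had *Slc16a3* at 216 TPM against 265 to 269 TPM in the other young samples.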

How the results depend on the processing

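Between Fluo-4 abnormal and normal fibers, 2 of the 6 genes were called (1 higher and 1 lower), 3 with TMM-type factors (0 higher and 3 lower, *Ldhb* and *Ldhd* gained and *Bsg* lost), 4 with a filter of 5 TPM or without aged pair 1 (*Ldhb* and *Ldhd* in addition), 0 with only the groups compared or the *Myh4* share in the model, and 0 to 4 when 1 sample was left out (4 without the first normal sample, 0 without the second normal or the second abnormal sample). Between abnormal and young fibers, 1 was called, 2 with TMM-type factors, with only the groups compared and without aged pair 1 (*Ldhb* in addition), 3 with a filter of 5 TPM, and 1 to 2 when 1 sample was left out. Of the other genes of lactate handling, 17 were called between abnormal and normal fibers, 10 with only the groups compared, 8 with the *Myh4* share and 9 to 18 when 1 sample was left out. Between abnormal and young fibers they were 16, and 9 to 20 when 1 sample was left out. Between normal and young fibers they were 3, 1 without a filter or with all annotated genes, 5 with a filter of 5 TPM, and 1 to 3 when 1 sample was left out. Over all genes, 1350 calls between abnormal and normal fibers became 754 with only the groups compared, 822 with the *Myh4* share and 667 to 1457 when 1 sample was left out. The 1226 between abnormal and young fibers became 604 to 1676 and the 166 between normal and young fibers 55 to 207 when 1 sample was left out, and the last became 266 with a filter of 5 TPM. With the replicate block, which pairs aged samples of the same number, 2 of the 6 genes and 20 of the list genes were called, where the calls over all genes rose from 1350 to 1844, and of the list genes named *Epas1* lost its call. TMM-type factors turned the calls over all genes from 1063 higher and 287 lower to 342 higher and 562 lower between abnormal and normal fibers, and from 879 and 347 to 474 and 669 between abnormal and young fibers. The cause of these shifts was not tested beyond the settings named. No ratio passed 0.05 with a pseudocount of 1 TPM, where the same limit of the adjusted exact permutation p-values holds. With ratios of group means or 1 sample left out, each difference moved by less than the larger SD of the 2 groups compared, but that of *Ldha* to *Ldhb* between normal and young fibers ran from -0.80 to 0.23 and that of *Slc16a3* to *Slc16a1* between abnormal and young fibers from -0.05 to 0.36. The exact sign-flip test of 4 pairs cannot go below 0.125, and the ratios were not tested as pairs. TPM carry no depth, so the precision of *Ldhb*, *Ldhd* and *Slc16a1*, at 4.35 to 57.7 TPM, could not be set from counts.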
